A study of Mus musculus with 4 samples.

Results

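Glucagon-rich cells of the mouse pancreatic islet were taken from 4 single-cell RNA libraries by the hormone content of each cell. A member had at least 500 genes detected, at most 20% of its unique molecular identifiers (UMIs, each standing for one captured RNA molecule) on mitochondrially encoded genes, and at least 5% of its UMIs on Gcg, the proglucagon gene. In addition Ins1 and Ins2 together had to lie below 3% of the UMIs, Sst below 2% and Ppy below 2%. This rule kept 4688 cells of the 43205 that passed the limits on genes and mitochondrial UMIs, out of 45709 barcodes in all. The members were chosen by their measured shares of Gcg, Ins1, Ins2, Sst and Ppy UMIs, so their glucagon content and everything that separates them from other cell types is described here without a test.

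The libraries came from islets of male mice aged 8 weeks. The Cre-negative library came from a Tet2(flox/flox)Tet3(flox/flox) mouse without Pdx1-Cre, and the Cre-positive library from a Tet2(flox/flox)Tet3(flox/flox) mouse with Pdx1-Cre, so both carry the floxed alleles. Pdx1 is expressed in the progenitors of the whole pancreas, from which alpha cells also arise, so that a Cre driven by it is not limited to beta cells. The control offspring library came from the offspring of a control mother and the intrauterine hyperglycaemia (IHG) offspring library from the offspring of a hyperglycaemic mother, both without a stated genotype. The study set out to learn how glucose tolerance and insulin secretion are impaired in IHG offspring. The number of mice behind each library was not given. Each group is 1 library, so differences between groups have no replicate check and no p-value is given. Intervals in brackets are exact 95% intervals that cover counting error only.

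Alpha cells secrete glucagon, which raises hepatic glucose output when blood glucose falls. Proglucagon is cut to glucagon by prohormone convertase 2 (Pcsk2), while prohormone convertase 1/3 (Pcsk1) cuts it to GLP-1 and, in beta cells, processes proinsulin. The homeodomain factors Irx1 and Irx2 mark the lineage in the adult mouse islet, and glucagon release is held back by somatostatin and insulin and driven by amino acids and adrenaline.

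The members numbered 492 in the Cre-negative library, 1427 in the Cre-positive library, 892 in the control offspring library and 1877 in the IHG offspring library. They held 3472588, 10371160, 3975590 and 12595211 UMIs in the same order, which is the order of all lists of 4 values below. The median member had 6566, 6147, 4096 and 6346 UMIs and 2400, 1975, 1494 and 1974 genes. Its mitochondrial share was 6.995%, 4.51%, 5.12% and 4.69%. At most 3 member barcodes were shared between any pair of libraries. No cell was removed as a doublet, and the 6% of kept cells with the highest doublet scores included 1.83%, 2.52%, 2.24% and 1.12% of the members.

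The Cre-negative library stood apart in glucagon content. Gcg made up a median of 16.3% of the UMIs of a Cre-negative member, against 29.4% in the Cre-positive, 29.7% in the control offspring and 35.5% in the IHG offspring library. The middle 50% of Cre-negative members ran from 10.3% to 23.2%, below the ranges of the other libraries, which were 24.2% to 34.5%, 24.8% to 34.6% and 30.3% to 40.1%. Members with 5% to 10% of their UMIs on Gcg made up 23.4% of the Cre-negative members, and 2.31%, 1.46% and 0.959% of those of the other libraries. The median member held 1064, 1808, 1195 and 2207 Gcg UMIs beside 5202, 4126, 2788 and 4000 UMIs outside the hormone genes, so the Cre-negative members had the fewest Gcg UMIs and the most other UMIs.

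**Figure D1:**
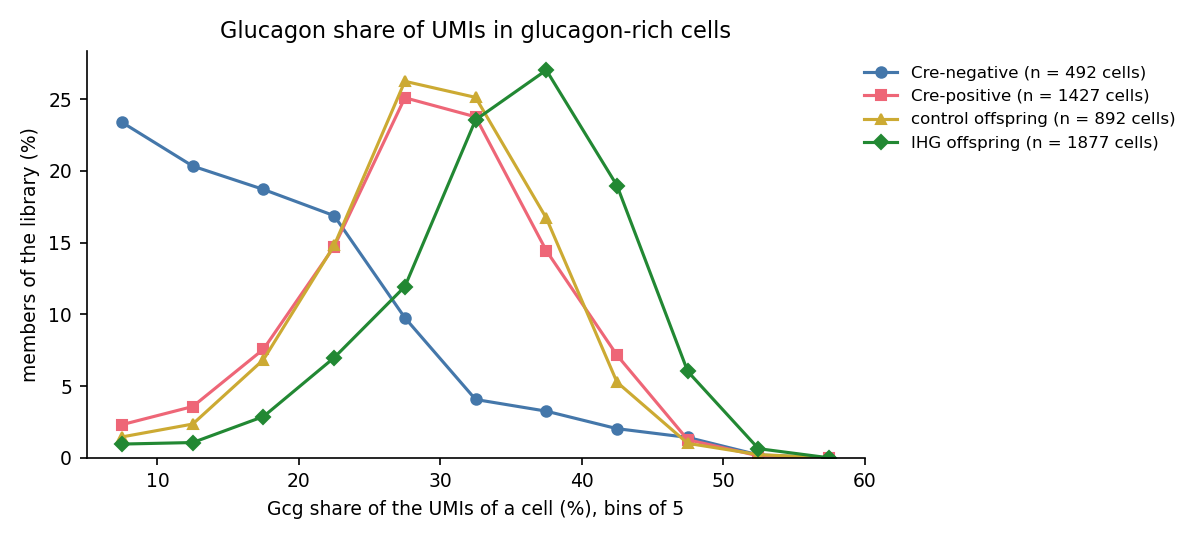
Share of the members of each library (y axis, %) in bins of Gcg as a percentage of a cell's UMIs (x axis), with 1 line per library. The Cre-negative line is highest in its first bin, at 23.4%, and declines from there, whereas the medians of the other libraries lie at 29.4%, 29.7% and 35.5%.

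At the edge of the rule, 26, 6, 2 and 4 members had between 5% and 6% of their UMIs on Gcg, and 15, 7, 0 and 6 cells that met the other limits had between 4% and 5%. Many more cells with at least 5% Gcg were left out because of a second hormone in some libraries than in others. These were 26 of 518 such cells in the Cre-negative library (5.02%), 1130 of 2557 in the Cre-positive (44.2%), 694 of 1586 in the control offspring (43.8%) and 433 of 2310 in the IHG offspring library (18.7%). In the Cre-positive library 716 of them exceeded the limit for Sst, 483 that for insulin and 166 that for Ppy, and a cell may exceed several limits.

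Members made up 8.30% (7.61% to 9.03%) of the kept Cre-negative cells and 14.9% (14.2% to 15.6%) of the kept Cre-positive cells. They made up 5.66% (5.31% to 6.04%) of the control offspring and 15.7% (15.1% to 16.4%) of the IHG offspring cells. The shares of the pair without an intervention, Cre-negative and control offspring, also lay outside each other's intervals. Single-hormone shares also depend on how many glucagon-positive cells the limits on Sst, insulin and Ppy left out, which differed between libraries as given above.

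The lineage factors Irx1 and Irx2 stood at nearly one level in the members of all 4 libraries, on a scale of UMIs per 1000000 UMIs of the summed members (CPM). Irx1, on chromosome 13 (GRCm38, 71957921 to 71963723, minus strand), was at 190, 194, 203 and 185 CPM. Irx2, on the same chromosome at 72628820 to 72634198 on the plus strand, was at 140, 135, 147 and 144 CPM. On this scale the Cre-negative members, lowest in Gcg, lay inside the range of the other libraries for both factors. The total includes Gcg, so a larger Gcg share lowers the CPM of every other gene. Whether either factor followed the glucagon share between libraries was not tested.

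In insulin-rich cells of the same libraries (23205 cells with at least 10% of their UMIs on Ins1 and Ins2 and under 2% on each other hormone) Irx1 was at 0.579 to 1.23 CPM and Irx2 at 1.04 to 6.25 CPM. After each cell was thinned to 2000 UMIs, an Irx1 UMI was found in 29.1%, 29.9%, 30.9% and 30.1% of the members, against 59.4%, 62.0%, 52.8% and 61.3% before thinning. The thinned share was 1.79%, 0.11%, 0.3035% and 0.231% in endothelial-like cells, which should lack Irx1 and so show the level of free RNA. Of the label's markers, Gcg was used to choose the cells, and the others, Irx1, Irx2 and Ttr, the gene of transthyretin, were each higher in the members than in insulin-rich cells in 4 of 4 libraries. Ttr was the least even of the markers, at 22980, 10766, 14896 and 22805 CPM beside 1077 to 1263 CPM in insulin-rich cells.

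Other islet regulators were shared with beta cells. Of 21 alpha and islet transcription factors counted, 4 were at least 2-fold higher than in insulin-rich cells in all 4 libraries (Irx1 and Irx2 among them) and 1 was lower (Insm1, a zinc finger factor of endocrine differentiation). Among all 5574 genes counted, 242 met the same rule upwards (4.34%) and 278 downwards (4.99%). Pax6, a factor of all islet endocrine cells, was at 212, 180, 184 and 169 CPM in the members. Insm1 was at 79.2, 124, 124 and 86.1 CPM in the members against 291 to 342 CPM in insulin-rich cells. Of 11 beta cell factors counted, 10 were lower and 1 was higher: Fev, a factor of serotonergic neurons and endocrine progenitors, at 126, 80.6, 94.1 and 118 CPM, was 17.1- to 41.6-fold above insulin-rich cells.

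Some beta cell genes were near the level of free RNA and others were not. Mafa, the factor of mature beta cells, was at 4.61, 8.49, 38.0 and 8.42 CPM in the members, below the 13.4, 40.5, 73.6 and 23.3 CPM of endothelial-like cells. Ins2 was at 1775, 2104, 4312 and 1605 CPM in the members beside 2485, 2540, 5269 and 2471 CPM in endothelial-like cells. Both classes were chosen with Ins1 and Ins2 below 3% of UMIs, so their Ins2 levels do not measure free RNA. Slc2a2, the glucose transporter GLUT2, was at 5.76, 2.99, 25.4 and 4.68 CPM in the members, where insulin-rich cells had 270 to 718 CPM. For Mafa, Ins2 and Slc2a2 the control offspring library was the highest of the 4, in members and in endothelial-like cells. Nkx6-1, a homeodomain factor of beta cells, was at 66.8, 83.0, 97.3 and 62.3 CPM in the members, above the 10.1, 19.3, 24.8 and 14.5 CPM of endothelial-like cells and below the 642 to 690 CPM of insulin-rich cells. The granule zinc transporter Slc30a8 was well present in the members, at 535, 386, 498 and 532 CPM beside 10.3 to 35.3 CPM in endothelial-like cells.

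Markers of other cell types were followed in the members as lists. The 14 beta cell markers summed to 4018, 4277, 7512 and 3501 CPM in members and to 3971, 4380, 8302 and 4045 CPM in endothelial-like cells. Ins1 and Ins2 are among these markers, and both classes had the same 3% limit on their UMIs. The 5 delta cell markers, Sst included, summed to 1280, 1878, 1022 and 902 CPM. Acinar markers summed to 1.15 to 6.27 CPM, with Cela2a and Amy2a1 at 0 in all libraries, duct markers to 321 to 787 CPM, with Cftr at 0, and lymphocyte markers to 0.288 to 4.28 CPM, with Trbc2 at 0. Stromal markers summed to 37.9 to 70.4 CPM and Schwann cell markers to 14.97 to 19.3 CPM. The lists for endothelial cells and macrophages are given beside the results they moved with.

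**Figure D2:**
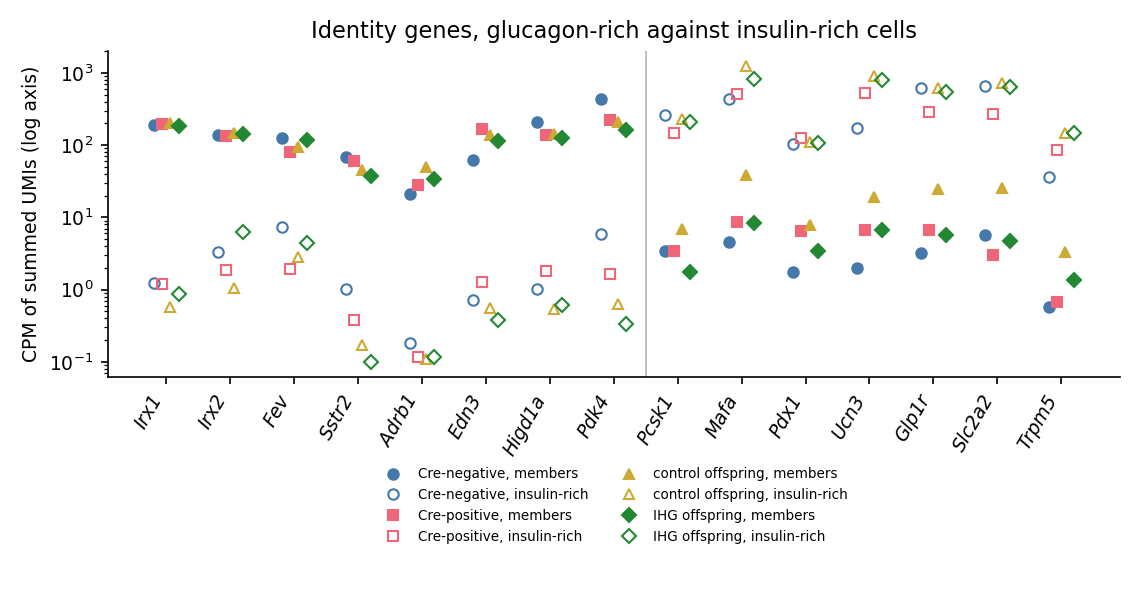
Level of 15 genes (CPM of summed UMIs, log axis) in members (filled points) and insulin-rich cells (open points) of the 4 libraries. Irx1, Irx2 and the genes beside them lie above insulin-rich cells in every library, and Pcsk1, Mafa, Ucn3 and Glp1r lie below them in every library.

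The processing enzymes divided by hormone. Pcsk2, on chromosome 2 at 143546156 to 143816285, was at 3949, 3991, 3959 and 4254 CPM, 1.73- to 2.25-fold above insulin-rich cells. Pcsk1 was at 3.46, 3.38, 6.79 and 1.75 CPM, 34.4- to 122-fold below them. The convertase inhibitor proSAAS (Pcsk1n) was at 1905, 1808, 1133 and 2155 CPM and was 3.53- to 6.31-fold above insulin-rich cells. Secretogranin 2 (Scg2), at 1472, 1497, 1265 and 1372 CPM, was 4.74- to 6.65-fold below them. In all, 3 of 31 processing and granule genes were at least 2-fold higher in every library (Pcsk1n, Resp18 and Rbp4) and 6 were lower. The shares over all genes were 4.34% and 4.99%.

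Receptors split in both directions, with 8 of 25 counted higher and 7 lower, beside 4.34% and 4.99% of all genes. The higher ones included Sstr2, the somatostatin receptor of alpha cells, at 69.4, 61.1, 45.0 and 37.4 CPM (67.9- to 378-fold). They also included Adrb1, the beta-1 adrenergic receptor, at 21.3, 28.1, 49.5 and 34.4 CPM, and Oxtr, the oxytocin receptor, at 74.0, 76.3, 87.0 and 63.0 CPM against 0.751 to 2.24 CPM. The AMPA glutamate receptor subunits Gria2 and Gria3, the lipid receptors Ffar4 and Gpr119, and Vipr1, a receptor for vasoactive intestinal peptide, completed this group. The lower ones included Glp1r, the receptor of GLP-1, at 3.17, 6.75, 24.4 and 5.64 CPM against 289 to 623 CPM, and Prlr, the prolactin receptor, at 2.30, 7.23, 15.3 and 3.65 CPM against 308 to 406 CPM. Adra2a, the adrenergic receptor through which insulin release is inhibited, was 17.4- to 50.01-fold below insulin-rich cells.

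Genes of nutrient handling lay in both directions, beside 4.34% of all genes higher and 4.99% lower. Of 20 genes of amino acid transport and metabolism, 4 were higher in all libraries and 2 were lower (Slc36a1 and Asns). The median log2 ratio of this list was 0.18, -0.18, -0.20 and -0.22. The higher genes included the glutamine transporter Slc38a5, the glutamate dehydrogenase Glud1 and the arginase Arg1. Slc38a5 was at 49.8, 55.4, 57.1 and 84.6 CPM (29.0- to 72.8-fold) and at 0 to 0.225 CPM in endothelial-like cells. Of 22 glycolysis and pyruvate genes, Pdk4, a kinase that shuts pyruvate dehydrogenase, was the only one higher, at 439, 222, 210 and 161 CPM, and Slc2a2, G6pc2, Pfkfb2 and Pcx were lower. None of 69 nuclear genes of oxidative phosphorylation met the rule in either direction. Gpx3, the secreted glutathione peroxidase, was at 1182, 1341, 1138 and 1714 CPM and 25.9- to 88.4-fold higher.

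By the rule for named genes, the 15 genes with the largest smallest-of-4 ratio to insulin-rich cells included Irx1, Minar1, Samd5, Adrb1, Edn3, Galnt13, Higd1a, Pdk4, Sstr2, Mamld1, Igsf21, Sgce and Pcdh8. Edn3, the peptide endothelin 3, was at 62.8, 169, 138 and 116 CPM, lowest in the Cre-negative members. Higd1a, a mitochondrial protein induced by hypoxia, was at 206, 137, 142 and 125 CPM, but was also present at 46.6 to 55.1 CPM in endothelial-like cells. The 10 genes at the other end were Msln, Ucn3, Prss53, Trpm5, Fam151a, Sytl4, Pcsk1, Mafa, P2ry1 and Hapln4. Ucn3, a peptide of mature beta cells, was 48.1- to 120-fold below insulin-rich cells, and Trpm5, a cation channel, 44.5- to 125-fold.

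Variation between members was read as the ratio of variance to mean. At the same relative spread this ratio grows with the level of a gene, so it does not rank relative variation. Hormones and stress genes were among those with high ratios, and the rule for members itself limits the spread of Gcg and Ppy. After thinning, the variance of Gcg between cells was 35.7 to 104 times its mean, where counting alone gives a variance equal to the mean. The corresponding ranges were 34.4 to 62.3 for Pyy, the peptide YY gene, 15.8 to 34.4 for Ttr and 11.7 to 24.6 for Ppy, pancreatic polypeptide. Among genes that are not hormones, several had some of the highest ratios of the 3960 genes counted. They included the heat shock genes Hspa1b (4.73 to 9.60) and Hspa1a (3.39 to 11.5) and the granule protein Chga (4.70 to 8.31). The early genes Jun (3.00 to 3.46) and Fos (2.73 to 3.83) were also among them.

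Pyy was abundant in the members, at 12128, 14639, 10152 and 15698 CPM, and lower in endothelial-like cells, at 3988, 1679, 587 and 2106 CPM. Ppy was at 652, 2220, 1268 and 1414 CPM, and at 760, 1736, 487 and 1772 CPM in endothelial-like cells. After thinning, a Ppy UMI was found in 9.93%, 63.2%, 37.9% and 39.9% of the members (22.8%, 84.0%, 49.3% and 58.2% before). In thinned endothelial-like cells that share was 9.82%, 31.1%, 7.44% and 12.2%. Those cells had no limit on Ppy, unlike the members, so their Ppy may exceed the level that free RNA gives. In the Cre-positive and control offspring libraries both the share and the CPM were higher in the members. The Cre-negative share was close to that of endothelial-like cells. In the IHG offspring library share and CPM went opposite ways, so no order is read there. Members with at least 5 of 13 proliferation markers numbered 2, 0, 2 and 5, or 0.407%, 0% (exact upper limit 0.258%, and 0.210% for a floor of 3 cells), 0.224% and 0.266% of the members. The shares among insulin-rich cells were 0.537%, 0.250%, 0.268% and 0.736%.

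Glucagon content was followed inside each library by comparing the upper with the lower quartile of Gcg share, in CPM of the UMIs outside the hormone genes. The median Gcg share was 7.62% against 29.1% in the Cre-negative members, and 19.5% against 38.0%, 20.8% against 37.7% and 25.4% against 42.7% in the other libraries. Only 3 of 3250 genes were at least 1.5-fold higher in the upper quartile of all 4 libraries (0.0923%) and 5 were lower (0.154%). The higher ones were Gpx3 (1.79 to 2.00), Kl, the gene of klotho (1.63 to 1.94), and Hapln1, a link protein of the extracellular matrix (1.59 to 2.19). The lower ones were the inhibitors of differentiation Id2 (2.23 to 2.57) and Id3 (1.66 to 2.95), Marcksl1 (2.16 to 4.60), the protocadherin Pcdh8 (1.65 to 2.31) and Igfbp7 (1.72 to 2.30). Of the label's other markers, Irx1 did not reach 1.5-fold between the quartiles of any library, with a ratio of 1.10, 1.26, 1.26 and 0.945. Irx2 had ratios of 0.6453, 1.188, 1.325 and 0.9325, and so passed 1.5-fold downwards in the Cre-negative library. Ttr, at 1.33, 2.345, 2.105 and 1.92, passed 1.5-fold upwards in every library but the Cre-negative one. The quartiles differed in depth, with 5486, 5114, 3745 and 5495 UMIs in the lower and 8211, 6528, 4398 and 6979 UMIs in the upper, and the part depth plays was not tested.

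The first comparison asked how the alpha cells of Tet2- and Tet3-floxed mice differ with and without Pdx1-Cre. TET enzymes oxidise 5-methylcytosine in DNA. Tet2, on chromosome 3 at 133463679 to 133545139, was at 51.8, 27.8, 43.0 and 32.6 CPM in the members and was 1.87-fold lower with Cre (1.54 to 2.26). Tet3, on chromosome 6 at 83362373 to 83459084, was at 16.1, 10.0, 16.9 and 11.9 CPM, 1.61-fold lower with Cre. Tet1, which is not floxed, was at 29.1, 14.3, 23.6 and 18.9 CPM and 2.04-fold lower. The kit captures the 3′ ends of transcripts, which may lie outside the floxed segments, and the level of Tet2 or Tet3 RNA is no check of recombination.

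A gene was counted where it reached 20 CPM in at least 1 of the libraries compared, and called where the ratio was at least 1.5. With Cre, 442 of 6539 genes were higher (6.76%) and 1557 were lower (23.8%), with a median log2 ratio of -0.32 over all genes counted. The pair without an intervention lay as far apart: control offspring members had 410 of 6538 genes higher (6.27%) and 1545 lower (23.6%) than Cre-negative members, also with a median of -0.32. The comparisons share the Cre-negative members, whose low Gcg share leaves a larger share of the total to other genes. When hormone and mitochondrial UMIs were left out of the totals, the median moved to -0.13 and 785 genes were higher and 977 lower of 7837, so that 44.6% of the called genes were higher instead of 22.1%. With size factors from the median of ratios 775 were higher and 500 lower (60.8% higher). Single genes are therefore given with the control offspring value beside them.

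The genes with the largest ratios with Cre were carried by few cells. Vip, the gene of vasoactive intestinal peptide, was at 0.864, 111, 0 and 0.159 CPM, 128-fold higher (43.8 to 623), but only 20 of the 1427 Cre-positive members had a Vip UMI and 10 cells held 99.1% of them. Npy, neuropeptide Y, was at 0, 52.3, 0 and 0 CPM, at least 60.5-fold higher against a floor of 3 UMIs per library, with 97.8% of its UMIs in 10 cells. Cartpt, a peptide of enteric and hypothalamic neurons, was at 5.18, 83.8, 0.503 and 0.0794 CPM, 16.2-fold higher, with 99.5% in 10 cells.

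The same cells carried these peptides. Just 7 Cre-positive members, and 0 members of the other libraries, had at least 5 UMIs of Vip, Npy or Cartpt. They held 1135 of the 1149 Vip UMIs, 525 of the 542 Npy UMIs and 856 of the 869 Cartpt UMIs of the Cre-positive members, and single cells reached 1027, 477 and 837 UMIs. Genes of peripheral neurons, chosen after their values were seen, were high in these 7 cells. Prph, the neuronal intermediate filament peripherin, was at 1179 CPM against 0.291 CPM in the other Cre-positive members, and Nos1, the neuronal nitric oxide synthase, at 773 against 0.0971 CPM. Their median Gcg share was 10.1%, and their Irx1 and Ttr were at 91.7 and 2791 CPM against 195 and 10825 CPM. In the other Cre-positive members Vip was at 1.36, Npy at 1.65 and Cartpt at 1.26 CPM, so that the peptide difference from the Cre-negative members rested on 7 cells.

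S100a6, H2-Aa, Cd74, Flt1, Timp3, H2-Ab1 and H2-Eb1 were also among the 12 genes with the largest ratios and were likewise uneven. S100a6, a calcium-binding protein, was at 0.864, 33.9, 2.01 and 1.51 CPM, with 94.0% of its UMIs in 10 cells and 296 in a single cell. Flt1, the endothelial VEGF receptor 1, was at 1.73, 37.7, 57.9 and 11.6 CPM, with 60.9% in 10 cells. Across the called genes, 19 of 442 higher with Cre (4.30%) had at least 50% of their UMIs in the top 1% of members, against 27 of all 6539 genes (0.413%). The other 2 of the 12, Bag3 and Slc5a3, were spread over many cells. Bag3, a cochaperone of the HSP70 proteins on chromosome 7 at 128523616 to 128546981, was at 33.7, 518, 652 and 202 CPM, 15.4-fold higher (12.8 to 18.6), with a UMI in 1098 Cre-positive and 90 Cre-negative members. Slc5a3, the myo-inositol transporter induced by osmotic stress, was at 6.62, 104, 59.9 and 24.1 CPM, 15.7-fold higher (10.4 to 24.8), with a UMI in 553 and 23 members. For Bag3 and Slc5a3 the control offspring members also lay far above the Cre-negative ones.

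**Figure D3:**
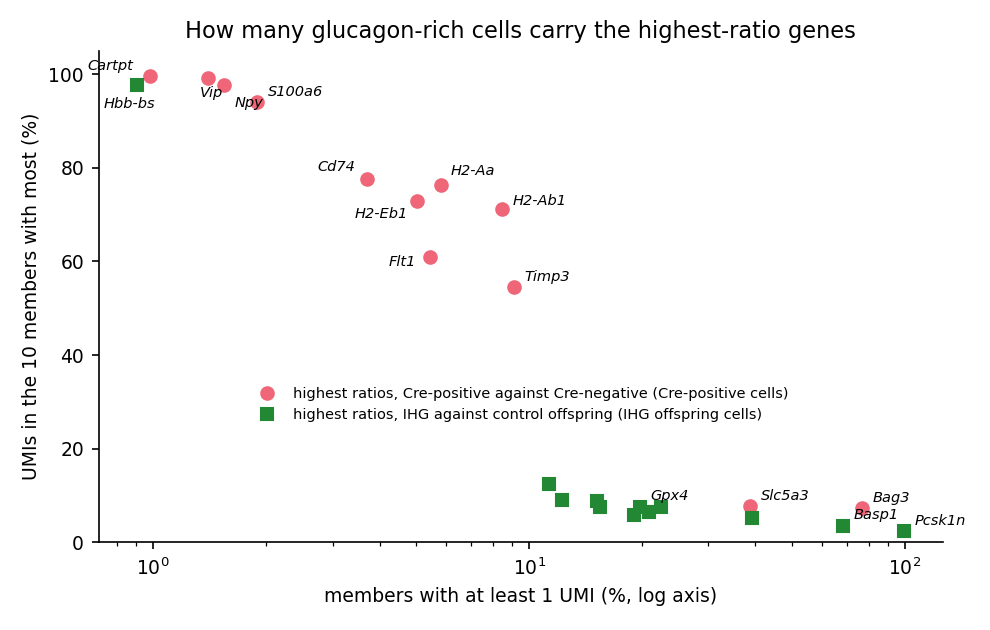
For the 12 genes with the largest ratio in each comparison, the percentage of Cre-positive or IHG offspring members with at least 1 UMI of the gene (x axis, log scale) and the percentage of its UMIs in the 10 members with most (y axis). Vip, Npy and Cartpt sit at the upper left with 97.8% to 99.5% of their UMIs in 10 cells, and Bag3 and Slc5a3 at the lower right with 7.28% and 7.71%.

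MHC class II genes, which present antigen on professional immune cells, were higher with Cre in members and in other cells of the library. H2-Aa was at 0, 33.4, 7.30 and 3.73 CPM and H2-Ab1 at 2.30, 41.4, 6.79 and 7.46 CPM, with 76.3% and 71.1% of the Cre-positive UMIs in 10 cells. At least 1 UMI of H2-Aa, H2-Ab1, H2-Eb1 or Cd74 was found in 3.46%, 18.2%, 1.46% and 3.04% of the members. The summed level of these 4 genes was 4.90, 120, 22.6 and 22.0 CPM in members and 55.4, 436, 29.0 and 23.3 CPM in endothelial-like cells. The other macrophage markers summed to 12.7, 50.04, 18.1 and 22.6 CPM in members, and to 154 CPM in the Cre-positive members with a class II UMI against 17.8 CPM in those without. Without members that held any endothelial or macrophage marker UMI, H2-Aa was 5.56-fold, H2-Ab1 4.23-fold and Cd74 5.01-fold higher with Cre. All Cre-negative members together held 0 H2-Aa, 8 H2-Ab1 and 3 Cd74 UMIs. The H2-Aa ratio is therefore against the floor of 3 UMIs, and the others rest on few UMIs. The part of macrophage RNA in the members left was not tested.

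Genes of interferon response and class I presentation were also higher with Cre. Of 15 counted, 11 were higher and 0 were lower, with a median log2 ratio of 1.00, beside 6.76% of all genes higher. Without the 6% of cells with the highest doublet scores 10 of 15 were higher, with a median of 0.69. Control offspring members had 3 higher and 0 lower of 10 against the same Cre-negative members. Ifi27 was at 12.7, 52.6, 15.9 and 16.4 CPM, 4.15-fold higher with Cre (3.05 to 5.78), and Bst2, tetherin, at 4.32, 24.7, 6.04 and 4.45 CPM, 5.71-fold higher (3.40 to 10.4) with a UMI in 192 Cre-positive and 15 Cre-negative members. Ifi27 and Bst2 were highest in the Cre-positive members, and reached the 20 CPM needed to be counted in that library alone. Such genes enter the count only through their high level there. The counts out of 15 and out of 10 are therefore not of the same genes. B2m, the shared light chain of class I, was at 36.9, 68.7, 37.5 and 30.3 CPM, and the interferon factor Irf9 at 21.6, 46.6, 20.9 and 15.6 CPM, again with the Cre-positive library alone at the top. Irf1, at 28.5, 90.6, 90.0 and 44.9 CPM, was as high in control offspring members. Without members that held an endothelial or macrophage marker UMI, 10 of 15 were higher and 0 lower, Bst2 was 6.49-fold higher, and B2m, 1.86-fold higher with all members, was 1.36-fold higher and no longer past the threshold. Insulin-rich cells had 10 of 14 higher and 0 lower with Cre.

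Heat shock genes and early genes moved apart with Cre. Of 35 genes in the list of both, 17 were higher and 12 lower, beside 6.76% and 23.8% of all genes. The median of -0.01 turned to 0.17 without hormone UMIs in the totals. All 12 heat shock genes of the list were higher: Hsph1, a HSP110 chaperone, was at 110, 1168, 1146 and 364 CPM, 10.6-fold higher (9.61 to 11.8). Hspa1a, an inducible HSP70, was at 2658, 7385, 10945 and 4446 CPM, 2.78-fold higher, and Dnaja1, its J-domain partner, at 435, 1605, 1521 and 505 CPM. The Cre-positive and control offspring members were both high and the Cre-negative and IHG offspring members lower.

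The immediate early genes, which are induced within minutes of a stimulus, ran the other way in part. Fos was at 2961, 689, 3144 and 1481 CPM, 4.30-fold lower with Cre (4.17 to 4.43), with the Cre-positive members the lowest of the 4. Klf4 was at 459, 139, 527 and 222 CPM, Junb at 392, 136, 239 and 134 CPM, and Egr1 at 2141, 934, 2523 and 850 CPM. Fosl2 was at 10.4, 86.2, 78.5 and 32.1 CPM, 8.31-fold higher with Cre, and Atf3 at 201, 441, 597 and 174 CPM. In insulin-rich cells of the same libraries 25 of 35 were higher and 2 lower (median 1.01), and Fos was 1.60-fold higher. The difference between the cell types was not tested.

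**Figure D4:**
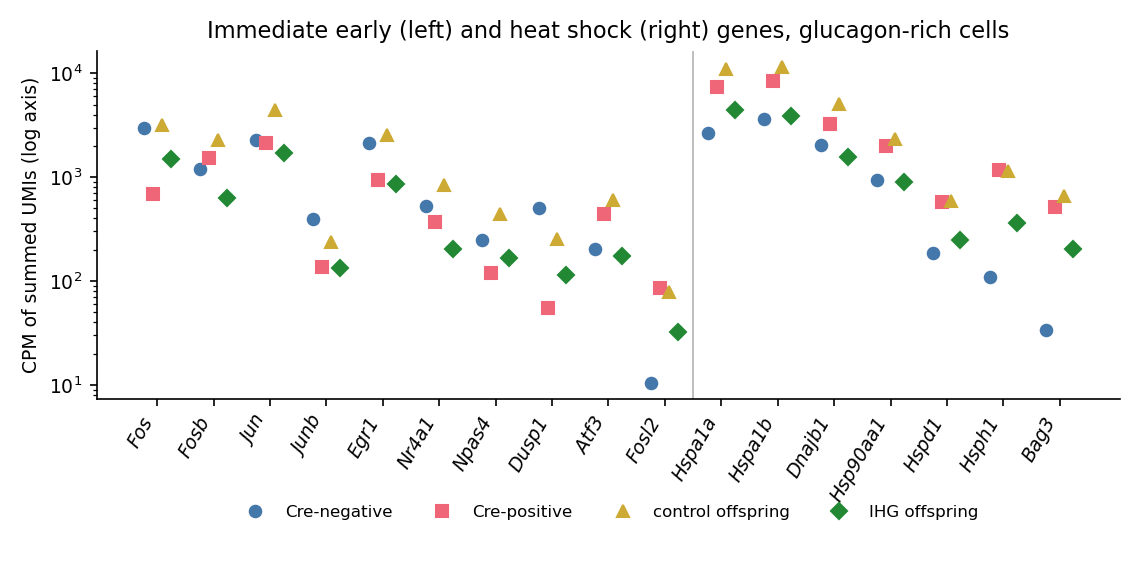
Level of 10 immediate early and 7 heat shock genes (CPM of summed UMIs, log axis) in the members of each library. The control offspring members have the highest Hspa1a (10945 CPM) and Fos (3144 CPM), and the Cre-positive members the lowest Fos (689 CPM).

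The genes furthest below with Cre were Gabrg1, Clip4, Ppp2r2c, Fam184b, Edil3, Dusp1, Elavl3, Ddit4, Egr4, Dapl1, Serpina1a and Dab1. Gabrg1, a GABA-A receptor subunit, was at 30.2, 2.60, 1.51 and 0.715 CPM, 11.6-fold lower (7.55 to 18.5). Edil3, an extracellular integrin ligand, was at 65.1, 6.75, 4.78 and 2.06 CPM, and Clip4, a microtubule-binding protein, at 39.2, 3.57, 2.01 and 2.06 CPM. In all 3 genes the Cre-negative members were high and both offspring libraries were as low as the Cre-positive one. Dusp1, a phosphatase of MAP kinases, was at 506, 55.0, 253 and 115 CPM, 9.21-fold lower (8.37 to 10.1), and Ddit4, an inhibitor of mTOR complex 1, at 197, 27.7, 91.8 and 56.1 CPM, 7.13-fold lower (6.20 to 8.21). For Dusp1 and Ddit4 the Cre-positive members were the lowest of the 4 libraries.

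Most lists of alpha cell function held more lower than higher genes with Cre, as did all genes counted (23.8% lower). Of 24 glycolysis and pyruvate genes, 0 were higher and 12 lower, and of 30 exocytosis genes 1 was higher and 11 lower. The control offspring members gave 1 higher and 11 lower of 25, and 0 higher and 15 lower exocytosis genes, against the same Cre-negative members. Of 29 processing and granule genes, 0 were higher and 6 lower with Cre. Without hormone UMIs in the totals, 0 and 8 glycolysis, 2 and 7 exocytosis and 0 and 3 processing genes were higher and lower. Among 22 transcription factors, Insm1 and Foxp4 were higher and Pou3f4, Isl1 and St18 lower (4 higher and 3 lower without hormone UMIs in the totals). Pou3f4, at 58.2, 22.3, 11.1 and 14.1 CPM, and Isl1, at 543, 282, 321 and 251 CPM, were high in the Cre-negative members alone. The adenylate cyclase Adcy5 (22.5, 3.76, 5.28 and 5.96 CPM) had the same pattern, as did Lpl, lipoprotein lipase, at 949, 273, 330 and 333 CPM.

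Of 31 genes of the unfolded protein and integrated stress responses, 8 were higher with Cre and 3 lower (median 0.14). The shares over all genes were 6.76% and 23.8%. Without hormone UMIs in the totals 13 were higher and 3 lower. Control offspring members had 5 higher and 4 lower of 31 against the same Cre-negative members. Sdf2l1, Herpud1, Ddit3 and Cebpg were higher in both comparisons. Herpud1, an adaptor of endoplasmic reticulum degradation, was at 324, 754, 645 and 304 CPM, 2.33-fold higher. The chaperone BiP (Hspa5) was at 1303, 1835, 2000 and 818 CPM and did not reach 1.5-fold with Cre. Txnip, a glucose-induced arrestin, was at 475, 249, 458 and 245 CPM and was among the 3 lower genes with Sesn2 and Ddit4.

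The remaining lists were smaller or more mixed. The Serpina1 antitrypsins, protease inhibitors, had 0 of 3 counted higher and 3 lower with Cre: Serpina1a was at 42.3, 6.94, 0.755 and 2.22 CPM and Serpina1d at 44.6, 15.8, 8.05 and 9.45 CPM, lowest in the control offspring members. The Serpina1a UMIs of the Cre-negative members were concentrated, with 71.4% of them in 10 cells. Of 69 nuclear genes of oxidative phosphorylation 1 was higher and 16 lower (median -0.43), a share close to the 23.8% of all genes, and 1 and 6 without hormone UMIs in the totals. Of 12 mitochondrially encoded genes 0 were higher and 7 lower (median -0.71). Of 25 antioxidant genes 5 were higher and 7 lower, with the metallothionein Mt1 at 136, 393, 289 and 177 CPM. Of 20 imprinted genes 2 were higher and 3 lower (4 and 2 without hormone UMIs in the totals), and Peg10 was at 9.503, 43.4, 39.99 and 17.2 CPM. Of 81 ribosomal protein genes 7 were higher and 0 lower, and their median of -0.10 turned to 0.08 without hormone UMIs in the totals.

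Signalling lists also held more lower than higher genes, as did all genes counted (6.76% higher and 23.8% lower). Of 23 receptors 1 was higher with Cre (Ffar4) and 7 lower, among them Gria2 at 325, 134, 172 and 149 CPM. Of 33 excitability and cAMP genes 3 were higher and 7 lower, and of 22 amino acid genes 3 were higher (Slc38a4, Slc7a5 and Arg1) and 7 lower. Of 27 genes of insulin, IGF and mTOR signalling 3 were higher and 6 lower, and the insulin receptor substrate Irs2 was at 83.8, 209, 340 and 135 CPM. Of 18 genes of DNA methylation and its cofactors 0 were higher and 8 lower, beside 1 higher and 8 lower of 18 in control offspring against Cre-negative members. Of 23 lipid genes 2 were higher and 5 lower. These balances depended on the totals: without hormone UMIs they were 4 higher and 5 lower for receptors, 5 and 5 for excitability and cAMP, 4 and 5 for amino acid genes, 5 and 3 for insulin, IGF and mTOR signalling, 2 and 5 for DNA methylation and 3 and 3 for lipid genes. The list of hormones and peptides holds the genes that chose the members, so no count is given for it. Of 5 beta cell factors 0 were higher and 2 lower.

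The second comparison asked how alpha cells of IHG offspring differ from those of control offspring. In IHG members 84 of 5844 genes were higher (1.44%) and 485 lower (8.3%), with a median log2 ratio of -0.09. Without hormone and mitochondrial UMIs in the totals the median was 0.05, and 363 genes were higher and 389 lower of 7712, or 48.3% higher of those called instead of 14.8%. In insulin-rich cells 30 of 5534 genes were higher and 41 lower. The IHG members therefore had more genes past the threshold than insulin-rich cells of the same libraries, from fewer UMIs, and the difference between the cell types was not tested.

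Hbb-bs, a haemoglobin gene of red blood cells, had the largest ratio upwards, at 0.288, 13.6, 0 and 23.2 CPM, with 97.6% of its IHG UMIs in 10 cells and 275 in a single cell. The other genes with the largest ratios upwards were Gpx4, Cd9, Pgls, Ache, Ppib, Basp1, Cops6, Ptov1, Pcsk1n, Cd59a and Tmem42, at ratios of 1.89 to 2.61. Pcsk1n was at 1905, 1808, 1133 and 2155 CPM, 1.90-fold higher (1.84 to 1.96), and 1.75-fold higher in insulin-rich cells. Gpx4, the peroxidase of lipid peroxides, was at 13.5, 19.2, 13.6 and 35.4 CPM, 2.61-fold higher (1.96 to 3.53). Basp1, a membrane protein of growth cones, was at 528, 252, 122 and 260 CPM, 2.13-fold higher (1.94 to 2.35). For Pcsk1n and Basp1 it was the control offspring library that lay below the other 3.

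The genes furthest below in IHG members held early genes and endothelial genes. Egr4, an early zinc finger factor, was at 135, 20.8, 59.6 and 3.73 CPM, 16.0-fold lower (11.6 to 22.3). Ccn1, a matricellular early gene, was at 117, 39.3, 170 and 18.98 CPM, 8.96-fold lower (7.72 to 10.4), and Arc, a cytoskeletal early gene of neurons, at 423, 171, 372 and 80.3 CPM, 4.64-fold lower (4.28 to 5.03). Esm1 (1.44, 7.81, 49.6 and 5.16 CPM), Plvap, Flt1, Kdr and Igfbp3 were high in control offspring members, where 10 cells held 91.7% to 94.96% of their UMIs. The summed endothelial markers were at 30.8, 150, 249 and 60.3 CPM in members. Slc2a2 was 5.42-fold lower in IHG members, and its control offspring level of 25.4 CPM lay below the 28.4 CPM of endothelial-like cells there.

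Early and heat shock genes were lower in IHG members across the list: 0 of 35 were higher and 35 lower, with a median log2 ratio of -1.35, beside 8.3% of all genes lower. Fosb was at 1200, 1540, 2275 and 631 CPM, 3.604-fold lower, Nr4a1, an orphan nuclear receptor, at 525, 373, 832 and 201 CPM, 4.14-fold lower, and Hspa1b at 3589, 8339, 11602 and 3887 CPM, 2.98-fold lower. For Fosb, Nr4a1 and Hspa1b the control offspring members were the highest of the 4, and the list was 24 higher and 3 lower of 36 in control offspring against Cre-negative members. Without hormone UMIs in the totals 0 were higher and 34 lower of 36, and with members of 15% to 35% Gcg alone 0 and 31 of 35. Without members that held an endothelial or macrophage marker UMI, 34 of 34 were lower. The somatostatin cells had 0 higher and 32 lower of 34 (median -1.22) and the endothelial-like cells 0 and 27 of 36 (median -1.02), while insulin-rich cells had 0 and 7 of 29 (median -0.37). With 1 library per group, a difference between libraries and one of the maternal treatment cannot be told apart.

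**Figure D5:**
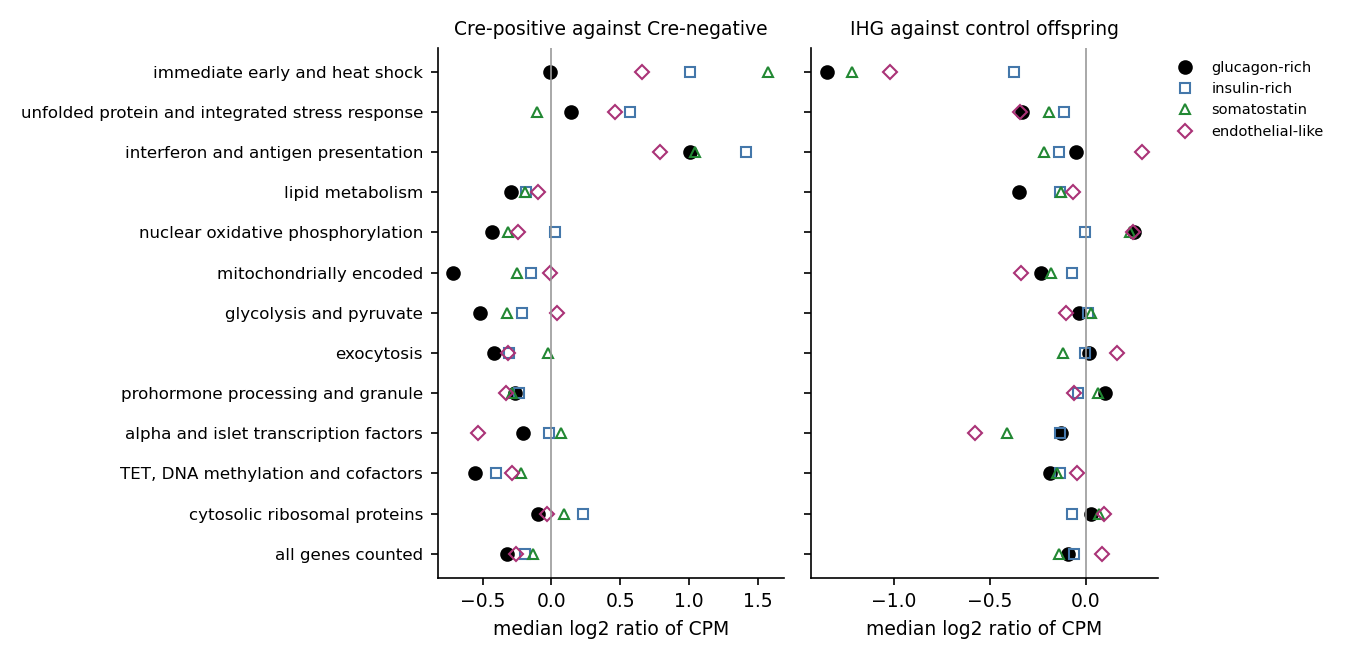
Median log2 ratio of 12 gene lists and of all genes counted, with Cre (left) and in IHG offspring (right), in members, insulin-rich, somatostatin and endothelial-like cells. The early and heat shock list is at -1.35 in IHG members and at -0.37 in insulin-rich cells, and the interferon list at 1.00 in Cre-positive members.

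Smaller groups held more lower than higher genes in IHG members too, beside 8.3% of all genes lower. Of 32 unfolded protein and stress response genes 0 were higher and 6 lower (median -0.33), with Hspa5 2.45-fold lower (2.38 to 2.52) and Herpud1 2.12-fold lower. Of 22 lipid genes 0 were higher and 9 lower (median -0.35), and the 9 included Hmgcs1, Sqle and Insig1 of the sterol pathway. Hmgcs1 was at 30.8, 35.3, 44.0 and 22.2 CPM, 1.98-fold lower, and Hadh, an enzyme of fatty acid oxidation, at 56.4, 42.6, 47.0 and 22.3 CPM, 2.11-fold lower. The IHG members were the lowest of the 4 libraries for Hspa5, Hmgcs1 and Hadh. Insulin-rich cells had 1 lipid gene higher and 2 lower of 21.

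Nuclear genes of oxidative phosphorylation lay slightly above, with a median log2 ratio of 0.25 over 69 genes in IHG members, but only Ndufa4, at 86.1, 43.2, 37.7 and 68.0 CPM, reached 1.5-fold. Their median was 0.23 in somatostatin cells, 0.25 in endothelial-like cells and -0.01 in insulin-rich cells. With hormone UMIs left out, 9 of 72 were higher. In the antioxidant list 2 of 23 were higher, Gpx4 and Gpx3, and 5 were lower, among them Hmox1, haem oxygenase 1, at 23.04, 42.8, 63.4 and 15.9 CPM, 3.99-fold lower.

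In IHG members the signalling lists held more lower than higher genes, as did all genes counted (1.44% higher and 8.3% lower). Of 24 receptors 0 were higher and 3 lower (Insr, Glp1r and Nrp1), of 32 excitability and cAMP genes 0 and 6, and of 27 genes of insulin, IGF and mTOR signalling 0 and 6, with Irs2 2.51-fold lower. Of 19 amino acid genes 1 was higher and 3 lower, of 22 glycolysis genes 1 and 2, and of 16 genes of DNA methylation 0 and 2. Of 12 mitochondrially encoded genes 0 were higher and 2 lower, of 18 imprinted genes 0 and 1, of 10 interferon genes 0 and 2 (Irf1 and Rsad2), and of 81 ribosomal protein genes 0 and 0. No Serpina1 gene reached the level to be counted. Without hormone UMIs in the totals, 0 excitability genes were higher and 3 lower, and 0 and 4 of insulin, IGF and mTOR signalling.

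Few genes of alpha cell identity and secretion passed 1.5-fold between the offspring libraries, as among all genes counted (1.44% higher and 8.3% lower). In lists of this size such counts do not set these genes apart from the rest. Of 21 transcription factors 0 were higher and 0 lower, with Irx1 and Irx2 each within 1.5-fold. Of 29 processing and granule genes 1 was higher, Pcsk1n, and of 27 exocytosis genes 0 were higher and 1 lower. Of 8 beta cell factors 6 were lower in IHG members, namely Nkx6-1, Mafa, Slc2a2, G6pc2, Iapp and Glp1r, beside 8.3% of all genes. Of the offspring libraries, Mafa, Slc2a2 and Glp1r reached 20 CPM in the control library alone. They were thus counted only through their higher level there, and their calls add no support to the count. Of the same list, 7 of 8 were lower in endothelial-like cells, 5 of 11 in somatostatin cells and 1 of 10 in insulin-rich cells. Mafa and Slc2a2 lay below endothelial-like cells in both offspring libraries, whereas Nkx6-1, at 97.3 CPM in control and 62.3 CPM in IHG offspring members, lay above the 24.8 and 14.5 CPM there. With members under 1% insulin 3 of 7 were lower. Gcg itself, which chose the cells, was at 297885 CPM in control and 353338 CPM in IHG offspring members.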

How the data were processed

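The deposited values were UMI counts per gene and cell from islets captured with a microwell 3′ kit. Per the submitters' processing notes, the authors used Cell Ranger, Seurat and mm10, without versions. Counting settings for strand and multimapped reads were not given in the sources used here, so overlapping genes and near-identical copies (Hspa1a and Hspa1b, the Serpina1 and H2 families) are uncertain. Coordinates are GENCODE on GRCm38.

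For each library, UMIs of all cells of a class were added and scaled to CPM (numpy 2.4.6, scipy 1.17.1, pandas 2.3.3). Ratios have exact conditional binomial 95% intervals and shares Clopper-Pearson intervals, for counting error only; a count of 0 was set to a floor of 3 UMIs. The ratio is not a test: with 1 library per group there was none. Scrublet in scanpy 1.11.5 (expected rate 0.06) scored doublets. Endothelial-like cells held at least 10 UMIs over at least 3 endothelial markers, with Ins1 and Ins2 below 3% and Gcg below 2% of UMIs. They had no limit on Sst or Ppy. The libraries held 52489846 to 109110492 UMIs in all. Alternatives changed the scaling, the genes in the total, doublets, the limits on Gcg, insulin and mitochondrial UMIs, depth, the weighting of cells and the minimum level. The ratios were checked on simulated counts.

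Named genes were the 12 with the largest ratio in each direction at 50 UMIs or more in the higher library, without predicted, mitochondrial and hormone genes. Against insulin-rich cells they were the 15 highest and 10 lowest, by quartile up to 8 in each direction at 50 CPM, and for variation the 10 highest. Any gene of the 21 lists could be named too. Members and lists were chosen with earlier results of these data known. Some genes that meet these rules are not reported here.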

Additional observations from a re-analysis of the deposited data

Results flagged for a closer look

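With Cre, 5 genes moved one way in members and the other way in insulin-rich cells of the same libraries; with 1 library per group the difference between the cell types was not tested. S100a6 had a log2 ratio of 5.30 in members and -2.82 in insulin-rich cells, and Cd24a, a surface glycoprotein, 3.69 and -0.72. Both rested on few UMIs in Cre-negative members, at 0.864 CPM for S100a6 and 1.73 CPM for Cd24a. The early genes Fos (-2.10 and 0.68), Klf4 (-1.72 and 0.60) and Junb (-1.53 and 0.74) were lower with Cre in members and higher in insulin-rich cells.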

How the results depend on the processing

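No paired analysis was possible because each group is 1 library, and for the same reason no replicate could be left out. Counts of genes moved with the scaling, the minimum level, and, in IHG members, the range of Gcg. With Cre, 442 higher genes became 775 with median-of-ratios factors, 785 without hormone and mitochondrial UMIs, 1724 with a minimum of 10 UMIs and 209 at 50 CPM. The 1557 lower genes became 500, 977, 3486 and 711 under the same 4 settings. In IHG members the 84 higher genes became 151, 363, 942 and 25 under them, 191 after thinning to 2000 UMIs and 222 with members of 15% to 35% Gcg, a setting chosen after seeing the data. The 485 lower genes became 1738 at 10 UMIs, 232 at 50 CPM and 285 at 15% to 35% Gcg. Between the libraries without an intervention, 1955 genes past 1.5-fold became 1196 with median-of-ratios factors, 4567 at 10 UMIs and 913 at 50 CPM. The share of members was 6.36% in the Cre-negative library with at least 10% Gcg, 15.7% in the Cre-positive library with at most 10% mitochondrial UMIs, 4.93% and 7.28% in the control offspring library with under 1% insulin and at most 10% mitochondrial UMIs, and 16.6% and 19.2% in the IHG offspring library without the top doublet scores and at most 10% mitochondrial UMIs. Cartpt reversed, with a log2 ratio of -1.38 at 10% Gcg or more, -1.71 at 15% to 35% Gcg and -0.31 without members holding an endothelial or macrophage marker UMI, a setting also chosen after seeing the data. The other ratios of the 48 kept their direction where they could be computed; 4 had no value without members holding an endothelial or macrophage marker UMI. The number that moved beyond the counting interval was highest after thinning, at 19 of 48, and 0 with at most 10% mitochondrial UMIs.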
